A study of Mus musculus with 6 samples.

Results

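Chemokines, interleukins and their receptors were followed in mouse liver as the probe sets annotated to exactly 1 gene whose symbol begins with Ccl, Ccr, Cxcl, Cxcr or Il and then a digit. The rule, which uses names and no measured value, found 152 probe sets for 111 genes, among 22626 probe sets other than array controls and 12393 genes named by exactly 1 symbol. A further 6 probe sets name several genes, at least 1 of them of these families, and were left out. The arrays came from 3 transgenic and 3 wild-type mice at postnatal day 9, with 1 array per liver. Transgenic mice came from crossing a conditional Tcfeb (Tfeb) overexpression line with Alb-Cre, a line that expresses Cre recombinase from the albumin promoter and so acts in hepatocytes and their precursors. The labels describe the controls only as wild type and do not say whether they carried the conditional allele or Cre. They call the arrays biological replicates. The question was how overexpression of TFEB, a transcription factor that activates lysosomal and autophagy genes, changed expression in the liver. Values are deposited log2 expression per probe set, and errors of group means are SDs (n = 3 arrays in each group). A difference is the transgenic mean less the wild-type mean, and its standard error (SE) comes from limma. A probe set is called where the Benjamini-Hochberg adjusted p over all 22626 probe sets lies below 0.05.

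Chemokines are small secreted proteins that draw leukocytes along a gradient and act through receptors with several membrane-spanning segments. They are classed as CC or CXC by the spacing of their first cysteines. Interleukins are secreted signals read by receptors built from several chains, some bound to a single ligand and others shared across a family. In liver, hepatocytes answer interleukin-6 and interleukin-1 with the acute phase response, and Kupffer cells, the resident macrophages, are a major source of many of these signals.

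The whole series was checked as follows. The median over probe sets was 6.79 on each transgenic array and 6.74 to 6.76 on the wild-type arrays. The probe set for Tfeb did not pass the test, at 6.52, 6.61 and 6.36 in transgenic livers, against 6.91, 6.63 and 6.58 in wild-type livers. Whether this probe set lies within what the transgene carries was not examined, so the transgene's expression was not checked here. Transgenic replicate 1 had a male pattern of Xist and Eif2s3y and the other 5 arrays a female pattern, so results are also given without it. Hepatocyte transcripts were abundant on all 6 arrays, with albumin (Alb) at 14.87 ± 0.01 in transgenic and 14.87 ± 0.03 in wild-type liver. In whole liver, fewer cells of a type and less RNA per cell cannot be told apart.

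The array's dim range was taken to end at a mean of 6.5 over the 6 arrays, and 35 of the 152 probe sets, for 27 genes, lay above it. These were the CC chemokines Ccl2, Ccl5, Ccl6, Ccl9, Ccl24 and Ccl27a, and the CXC chemokines Cxcl1, Cxcl9, Cxcl10, Cxcl12 and Cxcl16. Among interleukins they were Il1b, Il16 and Il18, with the interleukin-18 binding protein Il18bp. The receptor chains were Il1r1, Il1rap, Il4ra, Il6ra, Il6st, Il10rb, Il13ra1, Il15ra, Il17ra, Il17rb, Il17rc and Il17re. None of the 21 probe sets for the 15 chemokine receptor genes lay above it, the highest having a mean of 5.94. The members just above the bound were 1 probe set each of Il1rap (6.67), Il1b (6.79) and Il13ra1 (6.80), and those just below it were 1 probe set each of Il1rn (6.40), Il33 (6.38) and Il15 (6.30). Ccl2 lay above the bound only through the transgenic arrays, and so had to differ. Its mean was 8.17 in transgenic and 5.77 in wild-type liver. By contrast 1 probe set of Il1rn (6.63), that of Il15 (6.81) and that of Il33 (6.56, not called) were above 6.5 in wild type only.

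Among the 35 probe sets above 6.5, 18 were called lower in transgenic liver (51.4%) and 6 higher (17.1%). The background over all 12151 probe sets above 6.5 was 18.3% called lower and 27.8% called higher. By gene, 15 of the 27 had a probe set called lower, 5 had one called higher and 7 had none. Genes with several probe sets have more chances of a call here. No share counted this way over all genes is given. The median difference was -0.30 over the 35 probe sets, against 0.07 over all those above 6.5. The 3 transgenic and 3 wild-type values did not overlap for 27 of the 35 (77.1%), with 62.3% as the background. Without transgenic replicate 1, 18 were called lower and 5 higher, and without transgenic replicate 2, 12 were called lower and 4 higher. Shares over all probe sets are not given for these fits. All 14 probe sets for the bacterial hybridisation controls read lower in every transgenic array, with a median difference of -0.37. Scaling the arrays to them raised every difference by 0.38 and moved the median of all probe sets to 0.34 from -0.04. On that scale 11 of the 35 were called lower (31.4%, background 6.28%) and 8 higher (22.9%, background 68.8%). The calls that changed sign there were the smaller falls of Il4ra, Il17ra, Il17re and both called probe sets of Il13ra1, and the falls of Ccl27a (-0.28, adjusted p = 0.0629) and Il16 (-0.14, adjusted p = 0.304) were no longer called. Directions below are on the deposited scale.

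**Figure D1:**
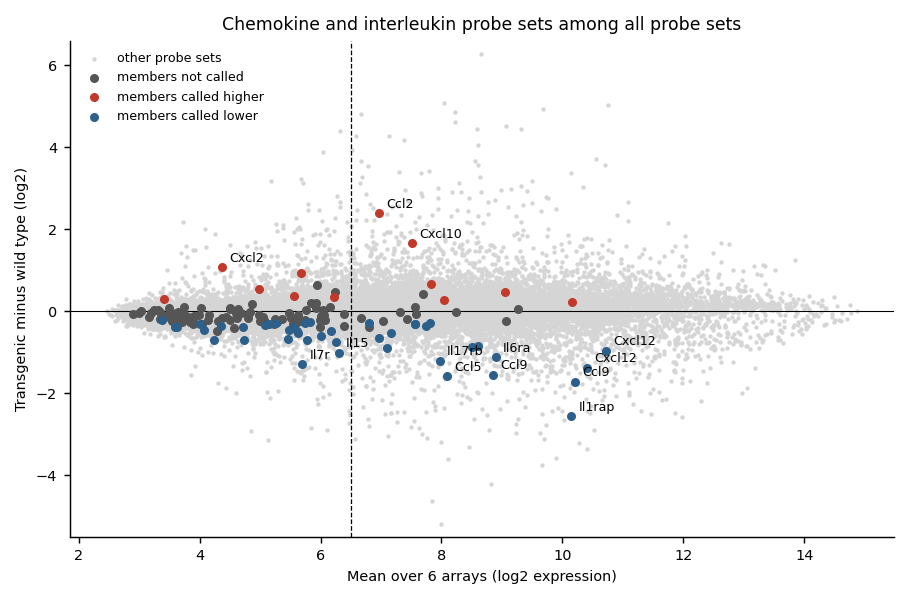
Difference between transgenic and wild-type liver (log2, vertical axis) against the mean over 6 arrays (log2 expression, horizontal axis) for every probe set, with the 152 members in colour and the dashed line at 6.5. Members called higher (red) are led by Ccl2 at 2.40 and members called lower (blue) by Il1rap at -2.56; names mark called members changed by over 0.95.

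Among 8 CC chemokine probe sets above 6.5, 1 rose, 4 fell and 3 did not pass. Ccl2, which recruits monocytes through the receptor CCR2, read 8.44, 7.66 and 8.42 in transgenic livers, against 5.77, 5.73 and 5.82 in wild-type livers. The groups did not overlap, and Ccl2 was 5.26-fold higher (2.40, SE 0.19, adjusted p = 7.85e-05). Ccl5, which recruits T cells and other leukocytes and is made by activated T and NK cells among others, read 7.12, 7.26 and 7.53 in transgenic livers, against 8.59, 8.95 and 9.13 in wild-type livers. It was 3.00-fold lower (-1.58, SE 0.15, adjusted p = 0.000195), every transgenic value lying below every wild-type value.

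Ccl9, a CC chemokine of mice that acts through CCR1, fell on both of its probe sets. The first read 9.57, 9.12 and 9.37 in transgenic livers, against 11.19, 11.07 and 10.95 in wild-type livers, a fall of 3.29-fold (-1.72, SE 0.12, adjusted p = 4.26e-05). The second read 8.27, 7.84 and 8.14 in transgenic livers, against 9.53, 9.85 and 9.52 in wild-type livers (-1.55, SE 0.13, adjusted p = 0.000112). Ccl6, a closely related mouse chemokine that also signals through CCR1, gave no such difference on either probe set. Its brighter probe set averaged 9.30 ± 0.34 in transgenic and 9.24 ± 0.29 in wild-type liver, a difference of 0.05 with a 95% interval of -0.39 to 0.50. The other averaged 7.30 ± 0.34 in transgenic and 7.33 ± 0.56 in wild-type liver (95% interval -0.66 to 0.61). With scaling to the bacterial controls the brighter one was called higher (0.43, adjusted p = 0.0283).

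Ccl27a, known in skin as an attractant of T cells that carry CCR10, read 6.68, 6.56 and 6.66 in transgenic livers, against 7.44, 7.30 and 7.15 in wild-type livers. The groups did not overlap (-0.66, SE 0.09, adjusted p = 0.00102), but the suffix of its only probe set marks possible cross-hybridisation, close copies of this gene exist in the mouse genome, and the call was lost with scaling to the bacterial controls. Ccl24, an eosinophil attractant acting on CCR3, read 7.27, 7.11 and 8.44 in transgenic livers, against 7.61, 7.21 and 7.72 in wild-type livers. These overlapped and did not pass (0.09, SE 0.32, adjusted p = 0.839), transgenic replicate 3 being the highest of the 6. The 13 CC chemokine probe sets at or below 6.5 had differences from -0.28 to 0.46, and 1 of them, for Ccl4, was called (-0.28, adjusted p = 0.0244).

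**Figure D2:**
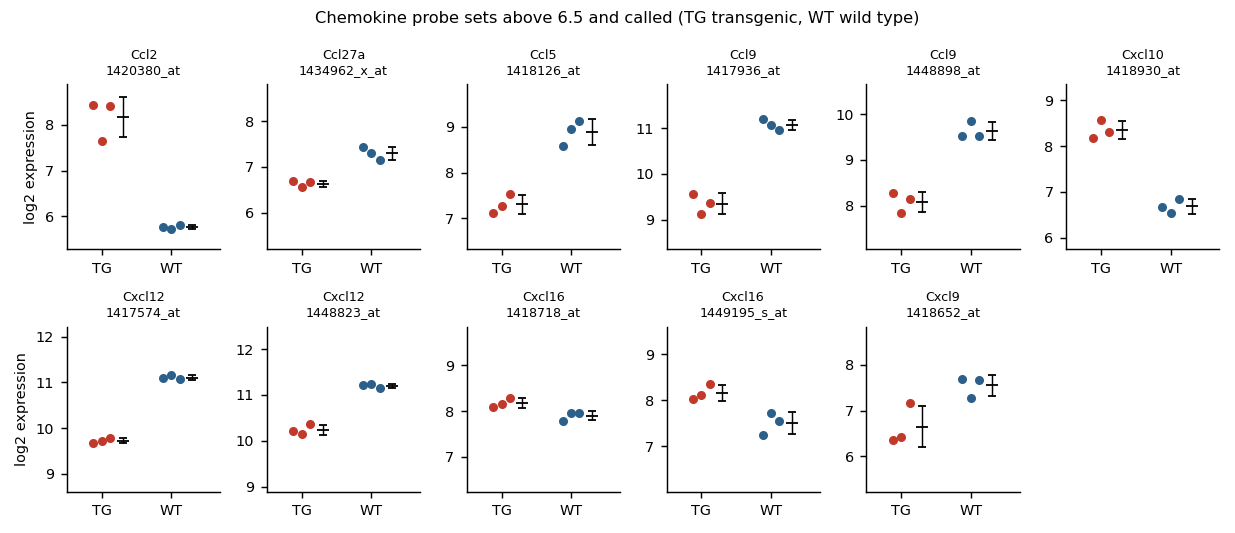
Log2 expression (vertical axes, each spanning the same number of log2 units) of the 11 chemokine probe sets above 6.5 that were called, with 1 point per array, transgenic (TG, red) left of wild type (WT, blue), and mean ± SD beside the points. In all 11 panels the groups do not overlap; the widest gap between them is that of Ccl2, followed by Ccl9 and Cxcl10.

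Among 7 CXC chemokine probe sets above 6.5, 3 rose, 3 fell and 1 did not pass. Cxcl10 and Cxcl9 both act on CXCR3, the receptor of effector T cells and NK cells, and both are textbook targets of interferon gamma, yet they differed in opposite directions here. Cxcl10 read 8.18, 8.56 and 8.31 in transgenic livers, against 6.68, 6.53 and 6.85 in wild-type livers, a 3.17-fold rise (1.66, SE 0.12, adjusted p = 4.7e-05). Cxcl9 read 6.36, 6.42 and 7.16 in transgenic livers, against 7.70, 7.28 and 7.68 in wild-type livers. It was 1.87-fold lower (-0.91, SE 0.22, adjusted p = 0.0137), transgenic replicate 3 lying closest to the wild-type values, and the call was narrowly lost without transgenic replicate 2 (adjusted p = 0.05004).

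Both genes lie on chromosome 5, with annotated starts 20810 bases apart. The 250 bases before each start (RefSeq, build GRCm38.p6, coding strand, 5′ to 3′) are shown because this neighbouring pair moved apart. The promoters of Ccl9 and Il6ra are given beside them as examples from genes that fell, chosen after the matches were seen. Capitals mark matches on either strand to the interferon-stimulated response element, the NF-kB consensus, or the E-box (CACGTG) that TFEB and many related factors can bind.
Cxcl10, chr5:92348890-92349139, minus strand: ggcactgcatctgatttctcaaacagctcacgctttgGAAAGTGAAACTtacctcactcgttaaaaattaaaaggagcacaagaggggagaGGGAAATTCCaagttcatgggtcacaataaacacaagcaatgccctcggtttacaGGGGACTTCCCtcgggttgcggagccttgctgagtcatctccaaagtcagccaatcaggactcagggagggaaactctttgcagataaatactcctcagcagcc
Cxcl9, chr5:92328080-92328329, minus strand: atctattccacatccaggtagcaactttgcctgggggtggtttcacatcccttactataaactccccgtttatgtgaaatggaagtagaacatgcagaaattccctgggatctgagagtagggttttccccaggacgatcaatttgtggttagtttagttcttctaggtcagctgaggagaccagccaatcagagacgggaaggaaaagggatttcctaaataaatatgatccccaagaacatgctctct
Ccl9, chr11:83578637-83578886, minus strand: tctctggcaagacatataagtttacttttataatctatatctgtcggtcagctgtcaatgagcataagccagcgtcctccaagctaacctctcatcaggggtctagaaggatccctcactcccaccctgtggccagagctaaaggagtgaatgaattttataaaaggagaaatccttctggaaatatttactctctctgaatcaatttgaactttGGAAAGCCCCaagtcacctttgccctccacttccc
Il6ra, chr3:89913197-89913446, minus strand: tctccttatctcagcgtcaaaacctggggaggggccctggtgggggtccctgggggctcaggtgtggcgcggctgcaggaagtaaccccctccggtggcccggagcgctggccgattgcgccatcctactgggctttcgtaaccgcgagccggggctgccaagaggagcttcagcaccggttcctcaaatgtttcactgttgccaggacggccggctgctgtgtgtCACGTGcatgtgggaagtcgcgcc
The Cxcl10 sequence holds 1 interferon-stimulated response element, from 213 to 202 bases before the start, and 3 NF-kB matches. These lie from 159 to 150, from 104 to 95 and from 103 to 94 bases before the start, the last pair overlapping. The Cxcl9 sequence holds 0 matches and the Ccl9 sequence 1 NF-kB match, from 35 to 26. The Il6ra sequence holds 1 E-box, from 24 to 19 bases before the start. The 21 of the 27 genes above 6.5 that had a promoter entry gave 27 promoter sequences, some genes having several start sites. Ccl2, Ccl5, Ccl24, Cxcl16, Il10rb and Il17ra had no entry and were not searched. Of the 27 sequences 5 held at least 1 NF-kB match (1 each for Cxcl10, Ccl9, Cxcl1, Il16 and Il1r1), 1 an interferon-stimulated response element and 1 the E-box. Over all 32851 promoter sequences of the same length the shares were 7.25%, 1.39% and 6.02% in that order. A match describes the letters and not binding, and the lack of one says only that these letters are not in this window. No other motif was searched, and the part that any match had in the differences was not tested.

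Cxcl12, the ligand of CXCR4 that holds blood cell precursors in their niches, fell on both probe sets. The first read 9.67, 9.73 and 9.78 in transgenic livers, against 11.09, 11.15 and 11.06 in wild-type livers, a 2.60-fold fall with the smallest SE among the called chemokines (-1.38, SE 0.07, adjusted p = 1.12e-05). The second read 10.21, 10.14 and 10.35 in transgenic livers, against 11.21, 11.23 and 11.15 in wild-type livers (-0.96, SE 0.08, adjusted p = 8.29e-05). Neither probe set had overlapping groups.

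Cxcl16, a membrane-bound ligand of CXCR6, was called higher on both probe sets. The first read 8.02, 8.11 and 8.35 in transgenic livers, against 7.25, 7.71 and 7.55 in wild-type livers (0.66, SE 0.14, adjusted p = 0.00747). The second averaged 8.18 ± 0.11 in transgenic and 7.90 ± 0.10 in wild-type liver (0.28, SE 0.09, adjusted p = 0.0376), and lost its call without any 1 of 5 arrays and under 3 of the normalizations. Cxcl1, a neutrophil attractant acting on CXCR2, read 7.80, 7.64 and 8.29 in transgenic livers, against 6.90, 6.86 and 8.69 in wild-type livers. It did not pass (0.43, SE 0.46, adjusted p = 0.492), but wild-type replicate 3 decided this, since without it Cxcl1 was called higher (1.03, adjusted p = 0.00666). Cxcl2, a related attractant for the same receptor, lay in the dim range and read 4.95, 4.36 and 5.41 in transgenic livers, against 3.74, 3.92 and 3.84 in wild-type livers. It was called higher (1.07, SE 0.23, adjusted p = 0.00837). The other 9 CXC chemokine probe sets at or below 6.5, which include the CXCR3 ligand Cxcl11 and Cxcl5, were not called.

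All 21 chemokine receptor probe sets lay in the dim range, where 3 were called higher and 6 lower. Over all members at or below 6.5, 25 of 117 were called lower (21.4%, background 16.2%) and 6 higher (5.13%, background 6.81%), which lies near the background of dim probe sets. Scaled to the bacterial controls, 43 of the 117 were called higher (36.8%, background 43.8%) and 6 lower (5.13%, background 1.45%). Those still lower were both probe sets of Il7r and 1 each of Il15, Il15ra, Il34 and Il1rn, so every other fall of a dim member given here was not called on that scale. Of the chemokine receptors 6 were then called higher and the falls lost their calls, the probe sets of Cxcr6 giving -0.33 (adjusted p = 0.0532) and -0.0034 (adjusted p = 0.98). Ccr2, the receptor of Ccl2, had 3 probe sets. The first read 6.22, 5.96 and 6.23 in transgenic livers, against 4.58, 5.31 and 5.72 in wild-type livers (0.93, SE 0.25, adjusted p = 0.0231). The second read 5.26, 5.17 and 5.32 in transgenic livers, against 4.82, 4.53 and 4.78 in wild-type livers (0.54, SE 0.10, adjusted p = 0.00383). Both were higher without overlap, whereas the last was not called (-0.04, adjusted p = 0.718). The call of the first was lost without transgenic replicate 1 (adjusted p = 0.0646), transgenic replicate 3 (0.0735) or wild-type replicate 2 (0.05001).

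Ccr1, the receptor of Ccl9 and Ccl6, was called higher on 1 of 2 probe sets (0.30, adjusted p = 0.0284), the other giving 0.64 (adjusted p = 0.0617). Cxcr6, the receptor of Cxcl16, was called lower on both of its probe sets (-0.71, adjusted p = 0.00663, and -0.38, adjusted p = 0.0103). Cxcr4, the receptor of Cxcl12, and Cxcr3, that of Cxcl9 and Cxcl10, were not called (adjusted p = 0.142 and 0.084). The remaining called receptors were Ccr7, Ccr8, Ccr9 and Cxcr5, which fell by 0.23 to 0.46 on 1 probe set each.

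The interleukin-1 family was led by Il1rap, the accessory chain that the receptors for interleukin-1 and interleukin-33 need in order to signal. Its brightest probe set read 9.21, 8.58 and 8.80 in transgenic livers, against 11.34, 11.43 and 11.50 in wild-type livers, a 5.90-fold fall (-2.56, SE 0.15, adjusted p = 1.75e-05). This was the largest difference of all 152 members on the deposited scale. The other Il1rap probe sets gave -0.17 (adjusted p = 0.116, at 6.58 ± 0.07 in transgenic and 6.75 ± 0.09 in wild-type liver) and -0.03 (adjusted p = 0.825), so the fall was seen on 1 probe set of 3. The mean of the 3 gave -0.92 (adjusted p = 0.0001). Il1r1, the chain that binds interleukin-1, averaged 8.95 ± 0.08 in transgenic and 9.19 ± 0.11 in wild-type liver, without overlap but just short of the threshold (-0.25, SE 0.08, adjusted p = 0.0521). It was called in 9 of 17 alternatives, whereas scaling to the bacterial controls gave 0.13 (adjusted p = 0.314).

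Il18, a family cytokine that is released after cleavage by caspase-1, read 8.266, 7.817 and 8.463 in transgenic livers, against 9.109, 9.002 and 8.984 in wild-type livers. It was lower by 1.803-fold without overlap (-0.85, SE 0.15, adjusted p = 0.00396). Il18bp, the secreted protein that neutralises it, read 8.327, 8.004 and 8.327 in transgenic livers, against 8.071, 8.329 and 8.341 in wild-type livers, and these values overlapped. The difference was -0.03 (95% interval -0.30 to 0.24, adjusted p = 0.87). The probe sets for the receptor chains Il18r1 and Il18rap lay in the dim range and were not called (adjusted p = 0.325 and 0.0884).

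Il1b, the main secreted interleukin-1 of macrophages, read 6.67, 6.22 and 6.92 in transgenic livers, against 6.51, 7.34 and 7.11 in wild-type livers. It did not pass (-0.38, SE 0.24, adjusted p = 0.241). In 1 of 16 alternatives, without wild-type replicate 1, it was called lower (-0.62, adjusted p = 0.0445), and with scaling to the bacterial controls it gave -0.004 (adjusted p = 0.987). Il1rn, the natural antagonist of the interleukin-1 receptor, had 3 dim probe sets that went different ways and was the only 1 of the 31 genes with several member probe sets to be called in both directions. The first read 5.938, 5.831 and 5.906 in transgenic livers, against 6.499, 6.638 and 6.759 in wild-type livers (-0.74, SE 0.09, adjusted p = 0.000448). The second read 6.38, 6.32 and 6.48 in transgenic livers, against 5.97, 6.07 and 6.14 in wild-type livers (0.33, SE 0.08, adjusted p = 0.013). The last was not called (-0.07, adjusted p = 0.725), and the direction for the gene is therefore not settled. The decoy receptor Il1r2 and the tissue-released cytokine Il33 were not called (adjusted p = 0.326 and 0.0958).

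The chains of the interleukin-6 receptor differed in opposite directions. Il6ra, which binds the cytokine, read 8.11, 8.49 and 8.43 in transgenic livers, against 9.62, 9.32 and 9.43 in wild-type livers, a 2.17-fold fall (-1.12, SE 0.12, adjusted p = 0.000328). Its dim probe set fell too (-0.60, adjusted p = 0.00222). Il6st, the gp130 chain that passes on the signal and is shared by the whole family, read 10.35, 10.19 and 10.30 in transgenic livers, against 10.11, 10.03 and 10.01 in wild-type livers. The groups did not overlap and the rise was 1.17-fold (0.23, SE 0.07, adjusted p = 0.0476), but the call was lost in 11 of 17 alternatives, with adjusted p-values of 0.00063 to 0.214. A second, dim probe set of Il6st was called higher (0.36, adjusted p = 0.0324) and the remaining one was not (0.03, adjusted p = 0.885). Il6 itself was dim and not called (-0.48, SE 0.17, adjusted p = 0.0644), at 4.08, 3.78 and 4.32 in transgenic livers, against 4.20, 4.70 and 4.70 in wild-type livers.

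Interleukin-15, which sustains NK cells and memory T cells, is shown to them on the cell surface by its own receptor chain. Il15ra, that chain, read 8.26, 7.96 and 7.96 in transgenic livers, against 9.20, 8.71 and 8.91 in wild-type livers (-0.88, SE 0.14, adjusted p = 0.00217), and its dim probe set fell by 0.71 (adjusted p = 0.00105). Il15, in the dim range by its mean, read 5.92, 5.63 and 5.83 in transgenic livers, against 6.85, 6.88 and 6.70 in wild-type livers (-1.02, SE 0.10, adjusted p = 0.000167). Ligand and presenting chain thus both fell without overlap of the groups. Il2rb, the signalling chain on the responding cells, was dim and lower on both probe sets (-0.28, adjusted p = 0.0164, and -0.49, adjusted p = 0.04).

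Il7r, the interleukin-7 receptor chain that lymphoid precursors depend on, had the largest fall among the dim members. It read 4.63, 5.27 and 5.26 in transgenic livers, against 6.08, 6.52 and 6.45 in wild-type livers (-1.29, SE 0.19, adjusted p = 0.00155). Its second probe set read 4.25, 4.47 and 4.41 in transgenic livers, against 4.79, 5.10 and 5.38 in wild-type livers (-0.71, SE 0.14, adjusted p = 0.00669). All transgenic values lay below all wild-type values on both. Il7 had 2 dim probe sets and neither was called.

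Of the interleukin-17 receptor chains above 6.5, 3 of 4 were lower. Il17rb, which binds interleukin-25 and interleukin-17B, read 7.48, 7.30 and 7.32 in transgenic livers, against 8.27, 8.77 and 8.69 in wild-type livers, a 2.31-fold fall (-1.21, SE 0.13, adjusted p = 0.000347). Il17ra, the chain common to the family, averaged 7.57 ± 0.11 in transgenic and 7.92 ± 0.10 in wild-type liver (-0.36, SE 0.09, adjusted p = 0.0156, and -0.54 on its dim probe set, adjusted p = 0.0278). Il17re, which binds interleukin-17C, averaged 7.66 ± 0.08 in transgenic and 7.95 ± 0.07 in wild-type liver (-0.29, SE 0.08, adjusted p = 0.0219, and -0.39 on its dim probe set, adjusted p = 0.00482). With scaling to the bacterial controls the differences of the brighter probe sets of Il17ra and Il17re became 0.02 and 0.09 and were not called. Il17rc, which pairs with Il17ra for interleukin-17A, read 7.65, 7.46 and 7.50 in transgenic livers, against 7.79, 7.52 and 7.50 in wild-type livers, and did not pass (-0.07, 95% interval -0.30 to 0.17).

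Chains of the interleukin-4 and interleukin-13 receptors showed small differences. Il4ra averaged 7.41 ± 0.13 in transgenic and 7.73 ± 0.10 in wild-type liver (-0.32, SE 0.09, adjusted p = 0.0294). Its other probe sets were dim and not called (-0.23, adjusted p = 0.0638, and -0.21, adjusted p = 0.139). Il13ra1, which joins it in the receptor outside blood cells, had 4 probe sets above 6.5 with differences from -0.31 to -0.18, of which 2 were called (adjusted p = 0.0388 and 0.0312). Its dim probe set was not called (-0.27, adjusted p = 0.172). Both genes' calls were lost without transgenic replicate 2 or 3, among other arrays, and under scaling to the bacterial controls the called probe sets turned to between 0.06 and 0.08 without passing. Il10rb, the shared chain of the receptors for interleukin-10, interleukin-22 and interferon lambda, read 9.33, 9.21 and 9.35 in transgenic livers, against 8.71, 8.86 and 8.89 in wild-type livers. It rose 1.39-fold without overlap (0.48, SE 0.08, adjusted p = 0.00283). Il10ra, the chain specific to interleukin-10, was dim on all 3 of its probe sets and not called.

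Il16, a chemoattractant for CD4-bearing cells, averaged 6.90 ± 0.08 in transgenic and 7.42 ± 0.09 in wild-type liver (-0.52, SE 0.08, adjusted p = 0.00205), and its dim probe set fell as well (-0.47, adjusted p = 0.0155), neither being called with scaling to the bacterial controls. Of 32 interleukin probe sets in the dim range 7 were called, all lower, and those not yet described, for Il17b, Il1f8, Il1f9, Il24 and Il34, fell by 0.30 to 0.67. The largest of these falls was that of Il34, a ligand of the CSF1 receptor, at 5.13 ± 0.03 in transgenic and 5.81 ± 0.07 in wild-type liver (adjusted p = 0.000274). Among the remaining dim members, the interleukin-21 receptor chain Il21r fell by 0.46 (adjusted p = 0.00135) and Il4i1, a secreted amino acid oxidase, fell by 0.40 (adjusted p = 0.017). No interleukin probe set in either range was called higher on the deposited scale. With scaling to the bacterial controls, 10 of the 32 dim interleukin probe sets were called higher (31.2%) and 2 lower (6.25%), against the 43.8% and 1.45% of all dim probe sets.

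**Figure D3:**
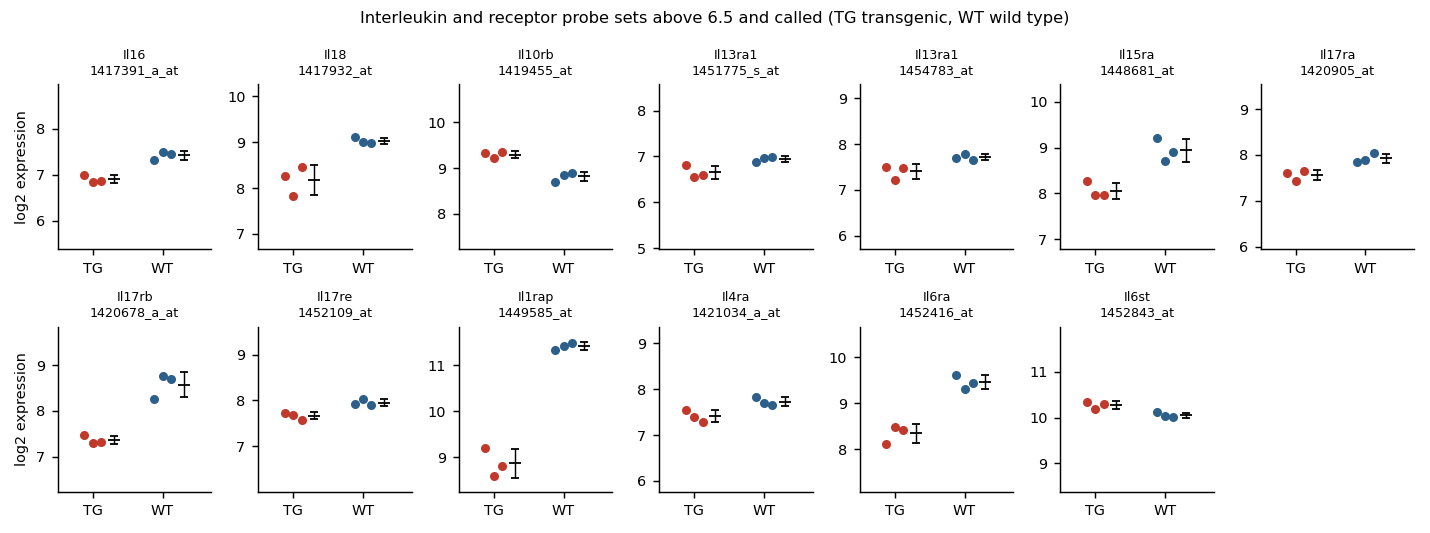
Log2 expression (vertical axes, each spanning the same number of log2 units) of the 13 interleukin and interleukin receptor probe sets above 6.5 that were called, with 1 point per array, transgenic (TG, red) left of wild type (WT, blue), and mean ± SD beside the points. Il10rb and Il6st are higher in transgenic liver and the other 11 panels lower, with the widest gap for Il1rap.

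**Figure D4:**
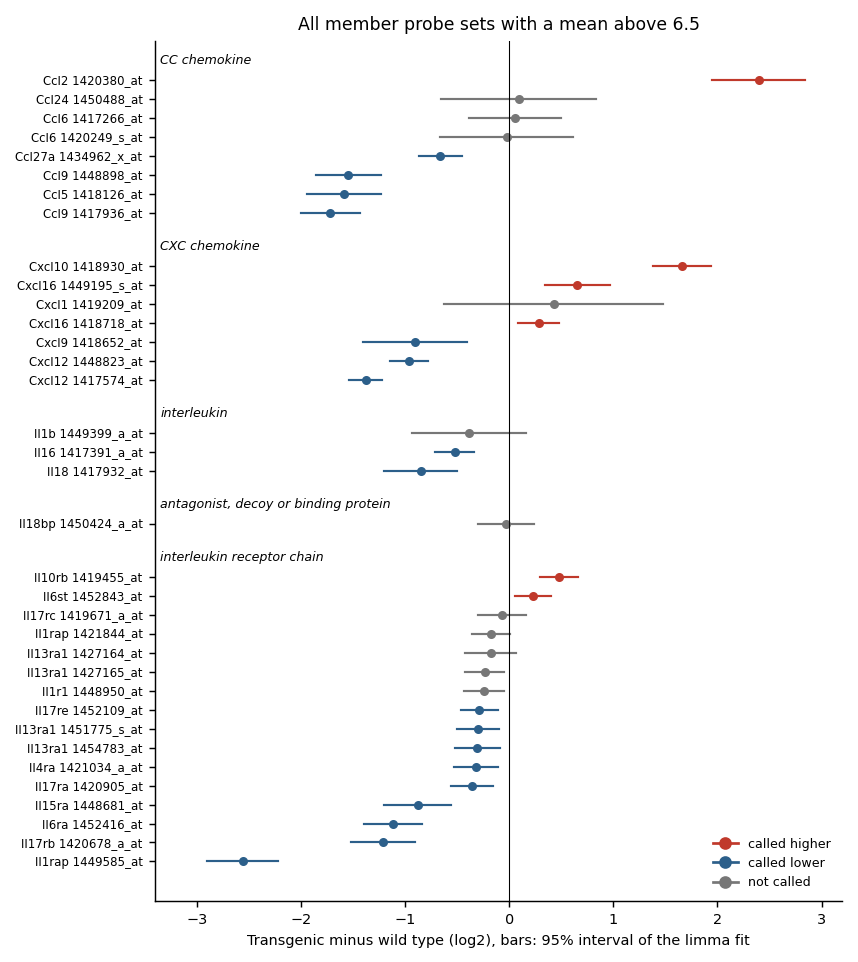
Difference between transgenic and wild-type liver (log2, horizontal axis) with its 95% interval from the limma fit for all 35 member probe sets above 6.5, grouped by role; red is called higher, blue called lower and grey not called. Chemokines spread from -1.72 to 2.40, whereas 14 of 16 interleukin receptor probe sets lie below 0, against 5016 of all 12151 probe sets above 6.5. The 16 stand for 12 genes, with 4 for Il13ra1 and 2 for Il1rap. The scale drawn is the deposited one. With scaling to the bacterial controls 4 of the 16 were called lower (25%, background 6.28%) and 2 higher (12.5%, background 68.8%).

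Signalling partners were read from lists of genes outside the naming rule, with each gene represented by its brightest probe set. Over all 12393 genes taken this way 19.1% were called higher and 19.5% lower, with a median difference of -0.04. With scaling to the bacterial controls 56.5% were called higher and 5.11% lower. Of 11 chemokines and receptors under other symbols, 1 rose and 2 fell, with a median of -0.16. Ppbp, a platelet chemokine, rose (0.66, adjusted p = 0.0093), and the dim Ackr4 (-0.28, adjusted p = 0.0284) and Cx3cl1 (-0.21, adjusted p = 0.0381) fell. On the scale of the bacterial controls 5 of the 11 rose and 0 fell. In the gp130 family outside the rule, 3 of 7 rose and 3 fell. Clcf1 (0.76), the oncostatin M receptor chain Osmr (0.62) and the ligand Lif (0.59) rose, Clcf1 and Lif lying in the dim range. Ebi3 (-1.06), a subunit of interleukin-27 and interleukin-35, and the cardiotrophin gene Ctf1 (-0.57) fell. The LIF receptor chain Lifr also fell (-0.37, adjusted p = 0.00741). On the scale of the bacterial controls 3 rose and only Ebi3 fell, Ctf1 giving -0.20 (adjusted p = 0.124) and Lifr 0.01 (adjusted p = 0.945).

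Of 18 JAK-STAT genes, 3 rose and 4 fell, with a median of -0.06. Socs3, the inhibitor that interleukin-6 signalling induces, rose (0.66, adjusted p = 0.0265), and Socs2, an inhibitor induced by growth hormone, fell (-1.23, adjusted p = 0.000123). Stat5a (-0.65) and Stat5b (-0.49), transcription factors of growth hormone and several interleukins, fell, and Stat3, the main transducer of interleukin-6, did not pass (-0.01, adjusted p = 0.951). Scaled to these controls, 12 of the 18 rose and 2, Socs2 and Stat5a, fell, Stat5b giving -0.11 (adjusted p = 0.37). Of 17 genes of interleukin-1 receptor and NF-kB signalling, 4 rose and 2 fell, with a median of 0.03. The NF-kB subunit genes Relb (0.69) and Rela (0.34), the kinase subunit gene Ikbkg (0.61) and the dim inhibitor gene Nfkbie (0.52) rose. The adaptor genes Tab2 (-0.37) and Tollip (-0.22) fell on the deposited scale. Neither was called lower with scaling to the bacterial controls, when 13 of the 17 rose and 0 fell. Of 5 inflammasome genes, 1 fell, the dim Nlrp3 (-0.36, adjusted p = 0.0446), and Casp1, which cleaves interleukin-18, did not pass (-0.26, adjusted p = 0.133). On the scale of the bacterial controls 0 inflammasome genes fell.

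Marker lists of the cell types that liver can hold were read in the same way. Of 9 granulocyte and myeloid precursor markers, 8 fell, with a median of -2.00 and summed antilog levels of 2680 to 6055 in transgenic and 11395 to 25296 in wild-type livers. All 9 B cell and B precursor markers, 3 of them above 6.5, were called lower on the deposited scale, with a median of -1.31. Their sums were 409 to 459 in transgenic and 861 to 1710 in wild-type livers, beside the fall of Il7r. With scaling to the bacterial controls the dim markers Cd79a, Ms4a1 and Pax5 were not called. The markers above 6.5 were Cd79b, Igll1 and Blnk, with transgenic means of 6.38, 6.17 and 5.97. They passed that bound only through the wild-type arrays, and so had to differ. Of 10 T and NK cell markers, 2 of them above 6.5, 5 fell and 1 rose. Their sums were 611 to 706 in transgenic and 1092 to 1370 in wild-type livers, beside the falls of Ccl5, Il2rb and Cxcr6. Of the falls of these members only that of Ccl5 was called with scaling to the bacterial controls. The largest falls were those of Gzma, a granzyme of NK and cytotoxic T cells (-1.86), and of the dim T cell receptor component Cd3g (-1.10). Gzma, the brightest marker of this list (mean 8.39), had the largest part in its summed levels. Thy1, also dim, was called higher (0.41), and Cd4, Cd8a, Ncr1 and Prf1 were not called. Besides Gzma only Cd3d lay above 6.5, through its wild-type mean of 6.76 (6.33 in transgenic liver). Of 12 Kupffer cell and macrophage markers, 4 fell and 0 rose, with a median of -0.34 and overlapping sums of 17524 to 21697 in transgenic and 20481 to 26829 in wild-type livers. The Kupffer markers Clec4f (-0.33) and Vsig4 (-0.34) did not pass.

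Of 7 bile duct markers 4 rose and 0 fell, with sums of 2659 to 3423 in transgenic and 641 to 1248 in wild-type livers. Cldn4 (4.61), Sox9 (2.22), Epcam (1.94) and Krt7 (1.15) rose, whereas Krt19 (-0.27), Krt23 (-0.32) and Cftr (0.38) were not called. Cldn4 and Epcam, at means of 10.53 and 9.48 in transgenic liver, had the largest part in the transgenic sums. Erythroid markers rose for 6 of 7. Of 8 hepatocyte markers 4 fell and 0 rose, with a median of -0.19. The list of liver endothelial markers had 5 of 10 lower and 1 higher, stellate cell and fibroblast markers 3 of 10 lower and 1 higher, mast cell markers 1 of 6 lower and 0 higher, and 0 of 5 megakaryocyte markers were called by limma, 1 of which, Gp1bb, had an unadjusted p below 0.05 (0.0343). With scaling to the bacterial controls 8 granulocyte, 6 B cell and 3 T and NK cell markers were still called lower, whereas 0 Kupffer, hepatocyte and endothelial markers were. On that scale 5 of 5 megakaryocyte, 6 of 7 erythroid, 6 of 10 stellate, 4 of 10 endothelial, 4 of 7 bile duct, 3 of 12 Kupffer, 2 of 8 hepatocyte and 2 of 6 mast cell markers were called higher. The normalized values have no zero, so no marker can be said to be at 0. The part that changes in these cell types had in the differences of the chemokines and interleukins was not tested.

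**Figure D5:**
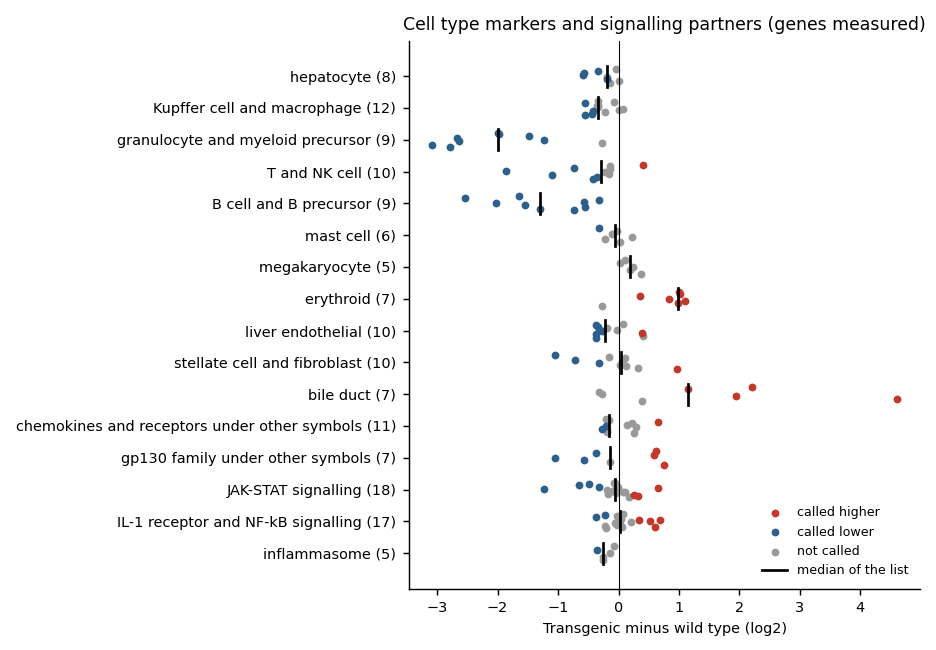
Difference between transgenic and wild-type liver (log2, horizontal axis) for each measured gene of the cell type and signalling lists, with 1 point per gene, the number of genes in brackets and a black bar at each list's median; red is called higher, blue called lower and grey not called. Granulocyte and B cell markers lie furthest below 0, with medians of -2.00 and -1.31, and bile duct markers have the highest median, 1.15.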

How the data were processed

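Liver RNA was extracted with Trizol and column kits, and biotinylated cRNA was made with an Affymetrix kit, per the labels' protocols. The authors deposited log2 expression per probe set, computed with affy and RMA according to the submitters' processing notes, where no versions appear. The table holds 22690 probe sets, 64 of them array controls, with 0 missing values and no detection calls. RMA equalises the arrays' distributions, so a global change in RNA would not show. Precision is limited by having 6 arrays.

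Groups and replicate numbers came from the sample titles, gene names from the platform annotation. All 152 members matched a RefSeq gene table (GRCm38.p6, names only) by Entrez identifier, with 0 symbols changed. Since members are probe sets, limma 3.58.1 (lmFit, eBayes, no covariates, R 4.3.3) was fitted per probe set on all 22626, with Benjamini-Hochberg adjustment. With 3 arrays a side, exact permutation gives no p below 0.1 and was not used. Promoter searches and figures used Python 3.11.15, pandas 2.3.3 and matplotlib 3.10.9. The limma script was tested on simulated data.

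Members, lists and alternatives were chosen with earlier results of these data known. By rule, values are given for every called member above 6.5, the 3 brightest members not called, the 6 called dim members with the largest difference, and up to 4 called genes of each signalling list. Partners of a described ligand or receptor and other named genes were added after their values were seen. The alternatives in the closing section cover the unit tested, filters, normalization, the variance model, the replicate block, left-out arrays and the dim bound. Same-numbered arrays did not deviate together (correlations of -0.095, -0.021 and 0.051), so numbers were not taken as pairs.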

Additional observations from a re-analysis of the deposited data

How the results depend on the processing

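Of the members above 6.5, 6 were called higher and 18 lower. Leaving out each array in turn gave 4 to 5 higher and 12 to 19 lower, and at or below 6.5 it gave 3 to 6 higher and 18 to 32 lower, against 6 and 25. With the replicate block, for numbers that the data do not show to pair the arrays, 5 and 16 were called above 6.5 and 5 and 22 below it. Scaling to the bacterial controls gave 11 lower above 6.5, and 43 higher and 6 lower below it, when 43.8% and 1.45% of all dim probe sets were called. Dim members called higher were 2 with 1 probe set per gene, 3 with probe sets averaged per gene and 1 without the 40% dimmest probe sets, when 4 were lower; these alternatives test fewer members. Dim members called lower were 16 without _s_at, _x_at and _a_at probe sets and 15 with cyclic loess. With the dim range ending at 6.0 or 7.0, 7 and 22 or 5 and 16 were called above it. Except for scaling to the bacterial controls, shares over all probe sets are not given for these alternatives. Their counts therefore describe the members alone and are not set against a background. Scaling to the bacterial controls, by construction adding 0.38 to each difference, changed the sign of 12 member probe sets above 6.5. Those called on the deposited scale were Il13ra1 (0.081 and 0.074), Il17ra (0.019), Il17re (0.091) and Il4ra (0.06), and none of these was then called. Il18bp (0.351) also changed sign and was then called higher. The calls of Ccl27a (-0.282) and Il16 (-0.142) ended. Ccl2, Ccl5, Ccl9, Cxcl10, Cxcl12, Il15, Il17rb, Il18, Il10rb and the brightest probe sets of Il1rap, Il6ra and Il15ra kept direction and call under every alternative run that held their probe set or gene. For dim members the signal over background is unknown.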
